A study of Bos taurus with 3 samples.

Results

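The genes examined are those of the chaperone system and of the unfolded protein response (UPR), measured in cultured cells of the bovine ovary. They were chosen by name from a list of 55 genes, not by a measured threshold. A gene counted as measured when at least 1 probe set of the array carried its symbol alone, which held for 46 of the 55, out of 9155 named genes in all. DNAJA2, CCT7, TCP1, HSPA13, PDIA6, ATF6, ERN1, XBP1 and EDEM1 had no such probe set and were not analysed here. The 46 genes were read by 73 probe sets, and each gene is given by its probe set of highest mean over the arrays unless another is mentioned.

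RNA of 3 cultures of Bos taurus cells was hybridized to 1 Affymetrix GeneChip Bovine Genome Array each. Gonadal Ridge Epithelial-Like (GREL) cells, polygonal somatic cells of the fetal ovary, came from 2 clonally enriched isolates of fetuses labelled as 130 days of gestation, and the paper's methods put the isolates a few days apart in age. They were compared with 1 fibroblastic culture, grown from the medullary stroma of the ovary of an adult animal over 1 year old. The sample labels and the paper's methods give this adult origin, whereas the design text of the series describes both cell types as cultured from fetal ovaries, and the labels were followed. No transgene or drug is mentioned for any of them, and all were grown at 39 °C with 5% CO2 in medium with 5% fetal calf serum, to 70% confluence by the labels. The adult tissue was digested with a higher concentration of collagenase than the fetal tissue. Clonal enrichment is mentioned for the GREL cells alone, and they came from dispersed fetal ovaries rather than from medullary stroma. Cell type, donor age, donor, part of the ovary, clonal enrichment and digestion therefore changed together between the groups and cannot be told apart. The values are log2 expression levels (RMA), so a difference of 1 is a 2-fold difference, and they were deposited to steps of 0.1.

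Chaperones are proteins that bind unfolded chains and help them reach or keep their fold. In the cytosol and mitochondria the HSP70, HSP90, HSP60 and chaperonin (TRiC/CCT) machines do this work, with J-proteins and other cochaperones steering their ATP cycles, and heat shock factors raise many of them when cells are stressed. In the endoplasmic reticulum (ER), where secreted and membrane proteins fold, the chaperone HSPA5 and the disulfide isomerases act, and unfolded chains there switch on the UPR through the sensors EIF2AK3, ERN1 and ATF6. The UPR raises ER chaperones and the machinery that degrades misfolded proteins, and with lasting stress the transcription factor DDIT3.

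The cultures were checked against markers of ovarian cells. Of 7 GREL markers 5 were measured, and all 5 exceeded the fibroblasts at least 2-fold in each isolate, while 7 of 10 stromal markers were at least 2-fold lower. All of these GREL markers but KRT18 are in the paper's selected list of genes higher in GREL cells on these same arrays. Their direction was therefore fixed in advance and is no independent check of the cultures. The isolates still held RNA of stromal markers, with 6 of the 10 stromal markers above the background level in isolate 1 and 4 in isolate 2, against 9 in the fibroblasts. No measured marker of endothelium, blood, germ cells or granulosa cells lay above that level on any array, FOXL2 among them. Of 5 smooth muscle markers 3 were above it on every array, ACTA2, CNN1 and DES, and DES was at least 2-fold lower in both isolates (9.5 in fibroblasts, against 8.3 and 8.1). The background level was the 95th percentile of 64 measured genes of other organs, at 6.17 on the fibroblast array, 6.2 on that of isolate 1 and 6.68 on that of isolate 2. Of the 46 genes 33 were above it on all 3 arrays and 6 below it on all 3. A lower one, their 90th percentile, was 5.14, 4.31 and 4.18 in the same order. In these bulk cultures fewer cells of a type and less RNA per cell cannot be told apart.

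In both GREL isolates 7 of the 46 genes were at least 2-fold higher than in the fibroblasts. These were the chaperonin subunits CCT2 and CCT5, the HSP70 and HSP110 proteins HSPA4, HSPA8 and HSPH1, the cochaperone STIP1 and the mitochondrial chaperonin HSPD1. DDIT3 was the only gene at least 2-fold lower in both. The 7 higher genes are 15.2% of the 46, against 7.26% of all named genes, and the 1 lower gene is 2.17% against 5.77%. At 1.5-fold 15 genes were higher (32.6%, against 16.3%) and 2 were lower, DDIT3 and P4HB (4.35%, against 11.0%). By any amount 30 were higher in both isolates (65.2%, against 41.6%) and 7 were lower in both (15.2%, against 33.5%). These shares compare genes of unlike brightness. Of the 9155 named genes 6440 were below the background level on all 3 arrays, against 6 of the 46. Shares among genes of like brightness were not counted. The mean of the isolates differed from the fibroblasts by a median of 0.35 on the log2 scale over the 46 genes and 0.05 over all named genes. Isolate 2 alone had 13 genes at least 2-fold higher and isolate 1 alone had 8. The share of all named genes was not counted for these, so they have no background to be judged by. Isolate 1 alone had 2 genes at least 2-fold lower, DDIT3 and CRYAB (4.35%, against 7.01% of all named genes). With each array centred on its median 4 genes were at least 2-fold higher in both, since HSPA4, STIP1 and HSPD1, at exactly 2-fold in isolate 1, then missed the threshold.

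Limma gave an adjusted p under 0.05 to none of the 46 genes and to no probe set of the array (0.0% of 24016). Their adjusted p ranged from 0.182 to 1.0. At an unadjusted p under 0.05 limma had 10 of the 46 higher and 2 lower (21.7% and 4.35%), against 9.8% and 11.1% of all probe sets. With a robust prior limma called 1 of the 46, CCT4, higher (2.38% of all probe sets were called higher), at an adjusted p = 0.0452, and in this gene the isolates had identical rounded values. The methods' analysis of variance called 0. Of the 24016 probe sets only 3960 were above the background level on at least 1 array, so the shares of all probe sets are mostly those of dim ones. The spread in these tests came from the 2 isolates alone, so the p-values do not hold the variation between fibroblast cultures, which had 1 array.

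**Figure D1:**
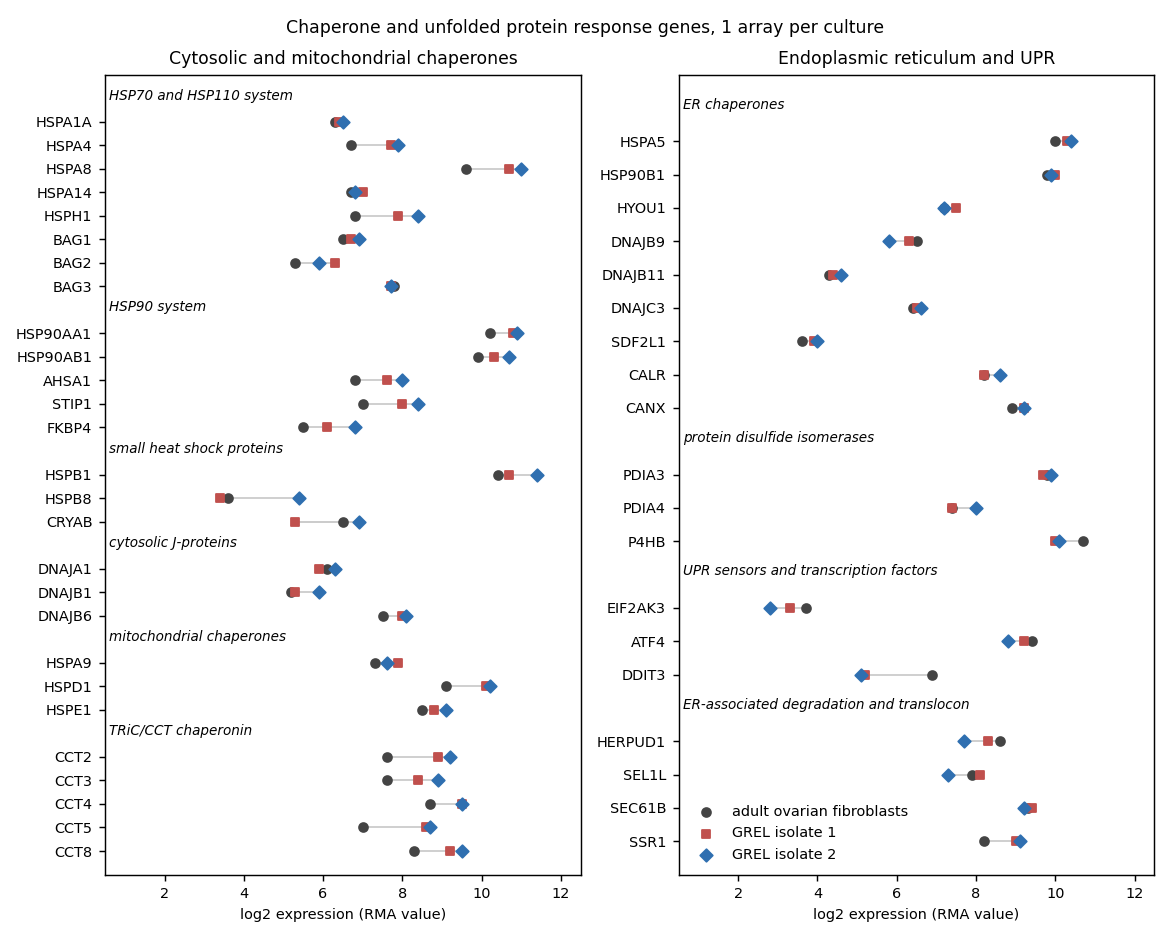
Log2 expression (horizontal axis, RMA value, 1 array per culture) of the 46 measured genes by role, where circles are the adult fibroblasts, squares isolate 1 and diamonds isolate 2 of the GREL cells, with a grey line joining the 3 values of a gene. In both isolates the 5 chaperonin subunits all lie higher than the fibroblasts, DDIT3 lies lower in both, and most ER chaperones lie within 0.5 of the fibroblasts.

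The TRiC/CCT chaperonin is a ring of related subunits that folds actin, tubulin and other cytosolic proteins. All 5 measured subunits were at least 1.5-fold higher in both isolates, with a median log2 difference of 1.05. CCT5 had a log2 level of 7.0 in fibroblasts, against 8.6 in isolate 1 and 8.7 in isolate 2, which is 3.03-fold and 3.25-fold. It was the only member more than 3-fold higher in both, and its difference of 1.65 (standard error 0.07) had an adjusted p = 0.182 in limma. CCT2 stood at 7.6 in fibroblasts, against 8.9 in isolate 1 and 9.2 in isolate 2, which is 2.46-fold and 3.03-fold. Both isolates thus lay well above the fibroblasts for each of these subunits, with gaps between the isolates of 0.1 and 0.3.

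CCT3 stood at 7.6 in fibroblasts, against 8.4 in isolate 1 and 8.9 in isolate 2. CCT8 stood at 8.3 in fibroblasts, against 9.2 in isolate 1 and 9.5 in isolate 2. CCT4 stood at 8.7 in fibroblasts, against 9.5 in each isolate. All 5 subunits were above the background level on every array. A further subunit outside the 55 genes, CCT6A, stood at 7.4 in fibroblasts, against 8.8 in isolate 1 and 8.7 in isolate 2.

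The HSP70 system binds short hydrophobic stretches of unfolded chains. HSPA8, its constitutive cytosolic member, had a log2 level of 9.6 in fibroblasts, against 10.7 in isolate 1 and 11.0 in isolate 2, which is 2.14-fold and 2.64-fold (difference 1.25, standard error 0.21, adjusted p = 0.23 in limma). HSPH1, an HSP110 protein that recharges HSP70 with ATP, stood at 6.8 in fibroblasts, against 7.9 in isolate 1 and 8.4 in isolate 2, which is 2.14-fold and 3.03-fold. Its 3 other probe sets lay between 0.8 and 1.5 on all arrays and give no information on it. HSPA4, a further HSP110 protein, stood at 6.7 in fibroblasts, against 7.7 in isolate 1 and 7.9 in isolate 2, and its second probe set at 6.1, 6.6 and 6.8 in the same order, a smaller difference in the same direction.

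The other members of the HSP70 system mostly lay closer to the fibroblasts. BAG2, a cochaperone that restrains the ubiquitin ligase bound to HSP70, stood at 5.3 in fibroblasts, against 6.3 in isolate 1 and 5.9 in isolate 2. Its second probe set was at 4.4, 5.5 and 4.7 in the same order, under 1.5-fold higher in isolate 2. BAG1, a nucleotide exchange factor, stood at 6.5 in fibroblasts, against 6.7 in isolate 1 and 6.9 in isolate 2. BAG3, which links HSP70 to autophagy and responds to heat shock, stood at 7.8 in fibroblasts, against 7.7 in each isolate. HSPA14, a ribosome-associated HSP70 protein, stood at 6.7 in fibroblasts, against 7.0 in isolate 1 and 6.8 in isolate 2. Its second probe set, below the background level, was at 4.3, 5.0 and 4.3 in the same order. For the brighter probe set of BAG2 the isolates lay 0.4 apart and only isolate 1 exceeded the background level. For BAG3 and the brighter probe set of HSPA14 the differences from the fibroblasts were at most 0.3.

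HSPA1A, the heat-inducible HSP70, could not be given 1 direction, since its 6 probe sets disagree. The probe set of highest mean stood at 6.3 in fibroblasts, against 6.4 in isolate 1 and 6.5 in isolate 2. Another stood at 4.2 in fibroblasts, against 5.8 in isolate 1 and 6.8 in isolate 2. A different one stood at 5.8 in fibroblasts, with isolate 1 below at 4.6 and isolate 2 above at 6.6. In each of the 6 probe sets isolate 2 was higher than isolate 1, by 0.1 to 2.0. HSP70 genes have near-identical copies, so these probe sets may also read other copies. For the probe set with the gap of 2.0 and for one with a gap of 1.6 the gene identifier of the platform annotation was not in the current gene table.

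HSP90 holds kinases and steroid receptors in a near-native state, and its cochaperones load and time that cycle. All 5 measured genes were higher in both isolates, 4 of them at least 1.5-fold, with a median log2 difference of 0.95. STIP1, which hands clients from HSP70 to HSP90, stood at 7.0 in fibroblasts, against 8.0 in isolate 1 and 8.4 in isolate 2, which is 2.00-fold and 2.64-fold (difference 1.20, standard error 0.28, adjusted p = 0.282 in limma). AHSA1, an activator of the HSP90 ATPase, stood at 6.8 in fibroblasts, against 7.6 in isolate 1 and 8.0 in isolate 2. FKBP4, an immunophilin of steroid receptor complexes, stood at 5.5 in fibroblasts, against 6.1 in isolate 1 and 6.8 in isolate 2. In FKBP4 the isolates lay 0.7 apart, slightly more than isolate 1 lay above the fibroblasts, and only isolate 2 exceeded the background level.

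The HSP90 proteins themselves differed less. HSP90AA1, the inducible form, stood at 10.2 in fibroblasts, against 10.8 in isolate 1 and 10.9 in isolate 2, and its second probe set at 6.7, 7.3 and 7.2 in the same order. HSP90AB1, the constitutive form, stood at 9.9 in fibroblasts, against 10.3 in isolate 1 and 10.7 in isolate 2. Both forms were therefore higher in each isolate, by 1.52-fold and 1.62-fold for HSP90AA1 and by 1.32-fold and 1.74-fold for HSP90AB1.

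In mitochondria HSPD1 and HSPE1 form the HSP60 folding chamber and its lid, and HSPA9 pulls imported proteins across the inner membrane. HSPD1 had a log2 level of 9.1 in fibroblasts, against 10.1 in isolate 1 and 10.2 in isolate 2, which is 2.00-fold and 2.14-fold (difference 1.05, standard error 0.07, adjusted p = 0.184 in limma). HSPE1 stood at 8.5 in fibroblasts, against 8.8 in isolate 1 and 9.1 in isolate 2. HSPA9 stood at 7.3 in fibroblasts, against 7.9 in isolate 1 and 7.6 in isolate 2. All of them were higher in both isolates, and HSPD1 was the one with the wider difference and the narrower gap between isolates.

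J-proteins deliver clients to HSP70 and trigger its ATPase. DNAJB6, which suppresses protein aggregation, stood at 7.5 in fibroblasts, against 8.0 in isolate 1 and 8.1 in isolate 2. DNAJB1, a heat-inducible partner of HSP70, stood at 5.2 in fibroblasts, against 5.3 in isolate 1 and 5.9 in isolate 2, while its second probe set was at 5.0, 5.1 and 4.6 in the same order, so its direction in isolate 2 was not settled. DNAJA1 stood at 6.1 in fibroblasts, against 5.9 in isolate 1 and 6.3 in isolate 2, which lay on either side of the fibroblasts. DNAJA1 and DNAJB1 were below the background level on all arrays.

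Small heat shock proteins hold unfolded chains without ATP, and here the isolates differed from each other more than in any other role. HSPB8, a partner of BAG3, had a log2 level of 3.6 in fibroblasts, against 3.4 in isolate 1 and 5.4 in isolate 2, below the background level throughout. CRYAB, alpha-B-crystallin, stood at 6.5 in fibroblasts, against 5.3 in isolate 1 and 6.9 in isolate 2. HSPB1, the widely expressed member, stood at 10.4 in fibroblasts, against 10.7 in isolate 1 and 11.4 in isolate 2. HSPB8 and CRYAB thus had no common direction against the fibroblasts, and isolate 2 was higher than isolate 1 in each of the 3 genes, by 2.0, 1.6 and 0.7.

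**Figure D2:**
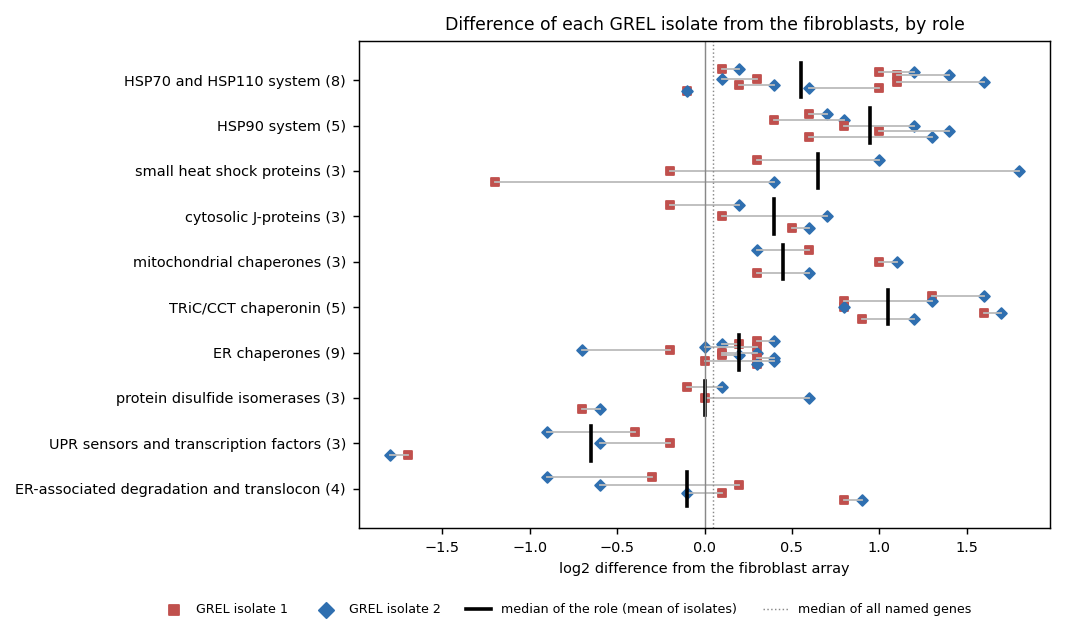
Log2 difference of each GREL isolate from the fibroblast array (horizontal axis, squares for isolate 1 and diamonds for isolate 2) for each measured gene, in rows by role (gene numbers bracketed), with the median of each role over the mean of the isolates (black bars) and the median of all named genes (dotted line, 0.05). The medians run from 1.05 for the chaperonin to -0.65 for the 3 UPR sensors and transcription factors, a value that is that of EIF2AK3, which was below background on all arrays, and the lines joining the isolates are longest in the small heat shock proteins.

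The chaperones of the ER lay close to the fibroblasts. Of 9 measured genes 0 were 1.5-fold apart in both isolates, and the median log2 difference was 0.20. HSPA5, the main HSP70 protein of the ER and the classic target of the UPR, had a log2 level of 10.0 in fibroblasts, against 10.3 in isolate 1 and 10.4 in isolate 2 (difference 0.35, standard error 0.07, adjusted p = 0.261 in limma). Its second probe set was at 8.3, 8.9 and 8.6 in the same order. HSP90B1, the HSP90 protein of the ER, stood at 9.8 in fibroblasts, against 10.0 in isolate 1 and 9.9 in isolate 2. Both of these genes were higher in the isolates by at most 0.6 in these probe sets.

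CALR and CANX, lectins that hold newly made glycoproteins, were also near the fibroblast level. CALR stood at 8.2 in fibroblasts, against 8.2 in isolate 1 and 8.6 in isolate 2. CANX stood at 8.9 in fibroblasts, against 9.2 in each isolate. HYOU1, the HSP110 protein of the ER, stood at 7.2 in fibroblasts, against 7.5 in isolate 1 and 7.2 in isolate 2. The largest of these differences, for CALR in isolate 2, was 0.4.

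Among the partners of HSPA5, DNAJC3 stood at 6.4 in fibroblasts, against 6.5 in isolate 1 and 6.6 in isolate 2. DNAJB11 (from 4.3 to 4.6) and SDF2L1 (from 3.6 to 4.0) were below the background level on all arrays. DNAJB9, a J-protein that assists degradation and is induced by the UPR, stood at 6.5 in fibroblasts, against 6.3 in isolate 1 and 5.8 in isolate 2. It was the only ER chaperone lower in both isolates, and in isolate 2 it was below the background level.

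Disulfide isomerases make and reshuffle disulfide bonds in the ER. P4HB, which is also the beta subunit of the prolyl 4-hydroxylase that modifies collagen, had a log2 level of 10.7 in fibroblasts, against 10.0 in isolate 1 and 10.1 in isolate 2 (difference -0.65, standard error 0.07, adjusted p = 0.2 in limma). PDIA3, which works with CALR and CANX, stood at 9.8 in fibroblasts, against 9.7 in isolate 1 and 9.9 in isolate 2. PDIA4 stood at 7.4 in fibroblasts, against 7.4 in isolate 1 and 8.0 in isolate 2, with a second probe set at 5.5, 5.7 and 6.2 in the same order. P4HB was therefore lower in both isolates, whereas PDIA3 lay on both sides of the fibroblasts and the brighter probe set of PDIA4 was higher in isolate 2 alone. The stromal markers were also lower in both isolates, with a median of 9.1 in the fibroblasts, 6.8 in isolate 1 and 5.9 in isolate 2. In P4HB the isolates lay 0.1 apart, which is 1 step of the deposited values. The part of the stromal markers in the difference of P4HB from the fibroblasts was not tested.

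All 3 measured sensors and transcription factors of the UPR were lower in both isolates by any amount, where 33.5% of all named genes were. Only 1 of them, DDIT3, was at least 1.5-fold lower in both. DDIT3, a transcription factor of the stress response that promotes cell death under lasting stress, had a log2 level of 6.9 in fibroblasts, against 5.2 in isolate 1 and 5.1 in isolate 2. The isolates had 0.308 and 0.287 times the fibroblast value (difference -1.75, standard error 0.07, adjusted p = 0.182 in limma). In fibroblasts DDIT3 exceeded the background level, and in the isolates it lay between the lower and the higher one, which leaves the size of the difference uncertain. It has 1 probe set, and its isolates lay 0.1 apart.

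ATF4, the factor upstream of DDIT3 that is mostly controlled through translation, stood at 9.4 in fibroblasts, against 9.2 in isolate 1 and 8.8 in isolate 2. EIF2AK3, the ER kinase that acts through ATF4, stood at 3.7 in fibroblasts, against 3.3 in isolate 1 and 2.8 in isolate 2, below both background levels. In both genes isolate 2 was the lower of the isolates, and for ATF4 the gap between the isolates, 0.4, was larger than the difference of isolate 1 from the fibroblasts. The splicing of XBP1 and the cleavage of ATF6, by which those branches of the UPR signal, are not read by this array.

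Misfolded ER proteins are handed back to the cytosol for degradation, while new chains enter through the SEC61 translocon. HERPUD1, a scaffold of the degradation complex and a UPR target, stood at 8.6 in fibroblasts, against 8.3 in isolate 1 and 7.7 in isolate 2. SEL1L, an adaptor of the same complex, stood at 7.9 in fibroblasts, against 8.1 in isolate 1 and 7.3 in isolate 2. HERPUD1 was thus lower in both isolates, and SEL1L in isolate 2 alone.

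SEC61B, a translocon subunit, stood at 9.3 in fibroblasts, against 9.4 in isolate 1 and 9.2 in isolate 2. SSR1, a subunit of the complex that assists the translocon, stood at 8.2 in fibroblasts, against 9.0 in isolate 1 and 9.1 in isolate 2, which is 1.74-fold and 1.87-fold. Another SSR1 probe set stood at 7.8 in fibroblasts, against 8.0 in each isolate, and the dimmest lay between 2.1 and 2.4. SSR1 was the only gene of the ER roles at least 1.5-fold higher in both isolates, and its probe sets disagree on the size.

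Set side by side, the 27 measured genes of the cytosol and mitochondria had a median log2 difference of 0.80 and the 19 of the ER and the UPR 0.15, a grouping chosen after the values were seen. In the former 14 genes were at least 1.5-fold higher in both isolates and 0 lower, and in the latter 1 was higher and 2 were lower. Of all named genes 16.3% were higher and 11.0% lower at this threshold, and the 2 lower of 19 are near that share. The difference between the groupings was not tested.

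**Figure D3:**
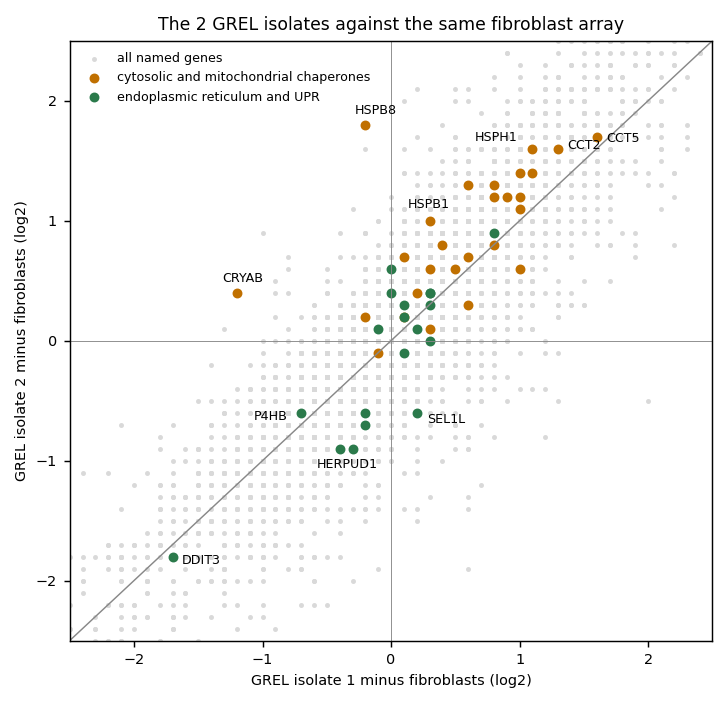
Log2 difference from the fibroblast array in GREL isolate 1 (horizontal axis) and GREL isolate 2 (vertical axis) for all named genes (grey), the 27 cytosolic and mitochondrial chaperones (orange) and the 19 ER and UPR genes (green), with the line of equal differences; genes with equal values overlap and a few grey points lie outside the axes. Both axes share the fibroblast array, and HSPB8 and CRYAB are the members farthest from the line.

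Between the isolates, which had 1 array each and were not tested against each other, 6 of the 46 genes were at least 1.5-fold higher in isolate 2 (13.0%, against 7.84% of all named genes). These were HSPB8, CRYAB, HSPB1, FKBP4, DNAJB1 and PDIA4. Of them HSPB8 and DNAJB1 were below the background level on all arrays, and the second probe set of DNAJB1 was lower in isolate 2, by 0.5. HSPA1A is not among them, since its probe set of highest mean had a gap of 0.1, but its other probe sets were higher in isolate 2 by 0.9 to 2.0. In the other direction 2 genes were at least 1.5-fold lower in isolate 2 (4.35%, against 5.6%), SEL1L by 0.8 and HERPUD1 by 0.6. The ratio of the probe sets at the 3′ and 5′ ends of GAPDH, which tracks RNA integrity, was 0.3 on the log2 scale in the fibroblasts, 0.4 in isolate 1 and 0.6 in isolate 2. For actin it was 1.5, 1.4 and 1.5, but its probe sets lay between 2.2 and 3.8, below the background level on every array, so this ratio tells little. The part of RNA integrity in these differences was not tested.

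Further genes of the same pathways, listed by name, were read for 143 of 183 symbols. At 1.5-fold 22 were higher in both isolates and 19 were lower (15.4% and 13.3%), against 16.3% and 11.0% of all named genes, and their median log2 difference was 0.00. At 2-fold 6 were higher and 12 were lower (4.2% and 8.39%), against 7.26% and 5.77%, so more were lower than higher at this threshold and not at 1.5-fold. Of 13 genes of the chaperonin, of prefoldin, which feeds it, and of tubulin folding, 5 were at least 1.5-fold higher and 0 lower. They were CCT6A, PDCL3, PFDN1, PFDN6 and VBP1, of which PDCL3, PFDN1 and PFDN6 are named after their values were seen and PFDN6 did not reach the background level on any array. VBP1, a prefoldin subunit, stood at 5.9 in fibroblasts, against 6.9 in isolate 1 and 7.0 in isolate 2. Of 10 genes of the HSP90 system 4 were at least 1.5-fold higher and 0 lower. They were PTGES3, PPID, CHORDC1 and PPP5C, named after their values were seen, and CHORDC1 and PPP5C, the ones that reached 2-fold, did not exceed the background level on any array.

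Of 28 further ER chaperones and folding enzymes 10 were at least 1.5-fold lower in both isolates and 2 were higher, where 11.0% of all named genes were lower and 16.3% higher. FKBP10, a prolyl isomerase of collagen folding, had a log2 level of 8.3 in fibroblasts, against 6.7 in isolate 1 and 6.4 in isolate 2. RCN3, a calcium-binding protein of the ER, stood at 7.8 in fibroblasts, against 6.4 in isolate 1 and 6.0 in isolate 2. FKBP7, a further ER prolyl isomerase, stood at 7.8 in fibroblasts, against 6.7 in isolate 1 and 6.3 in isolate 2. SDF4, a calcium-binding protein of the Golgi, stood at 7.3 in fibroblasts, against 6.2 in isolate 1 and 5.7 in isolate 2. These 4 genes were lower in both isolates, and in isolate 2 all 4 were below the background level. QSOX1, the other gene of this role at least 2-fold lower in both, is named after its value was seen. It stood at 9.8 in fibroblasts, against 8.8 in isolate 1 and 8.7 in isolate 2, above the background level on every array. In the same isolates 7 of the 10 stromal markers were at least 2-fold lower, and their part was not tested. SERPINH1, the collagen chaperone, named after its value was seen, stood at 10.3 in fibroblasts, against 10.3 in isolate 1 and 10.1 in isolate 2.

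Of 16 further genes of UPR and stress signalling 4 were at least 2-fold lower in both isolates and 0 were higher, where 5.77% of all named genes were lower. The isolates differed here, with a median log2 difference from the fibroblasts of 0.0 in isolate 1 and -0.85 in isolate 2. In isolate 1 alone 4 of the 16 were at least 2-fold lower (7.01% of all named genes), and in isolate 2 alone 8 were (8.26% of all named genes). Against isolate 1, 8 of the 16 were at least 1.5-fold lower in isolate 2, where 5.6% of all named genes were. Of those 8 genes only ATF5, NUPR1 and DDIT4 exceeded the background level on any array. Of the 16 genes 11 were below it on all arrays, so these counts and medians rest mostly on dim values. NUPR1, a stress-induced transcriptional regulator, had a log2 level of 8.6 in fibroblasts, against 5.0 in isolate 1 and 4.3 in isolate 2 (difference -3.95, standard error 0.49, adjusted p = 0.2 in limma). DDIT4, an inhibitor of mTOR signalling induced by stress, stood at 9.8 in fibroblasts, against 7.5 in isolate 1 and 6.5 in isolate 2 (difference -2.80, standard error 0.70, adjusted p = 0.286 in limma). NUPR1 was below the background level in both isolates and DDIT4 in isolate 2, so the sizes are uncertain. PPP1R15A, the phosphatase subunit that ends the translational block, and CHAC1, which breaks down glutathione, were the others, named after their values were seen and below the background level on all arrays. ATF3 and TRIB3, both induced by ATF4, are also named after their values were seen and did not exceed the background level on any array. ATF3 stood at 6.0 in fibroblasts, against 6.2 in isolate 1 and 5.9 in isolate 2. TRIB3 stood at 4.1 in fibroblasts, against 4.7 in isolate 1 and 2.8 in isolate 2. Among those that exceeded it on at least 1 array, ATF5, a stress-induced relative of ATF4, stood at 6.2 in fibroblasts, against 6.7 in isolate 1 and 5.5 in isolate 2. EIF2S1, the translation factor subunit that EIF2AK3 phosphorylates, stood at 6.9 in fibroblasts, against 7.5 in isolate 1 and 7.8 in isolate 2. ATF5 thus lay on both sides of the fibroblasts and EIF2S1 was higher in both isolates, both named after their values were seen.

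**Figure D4:**
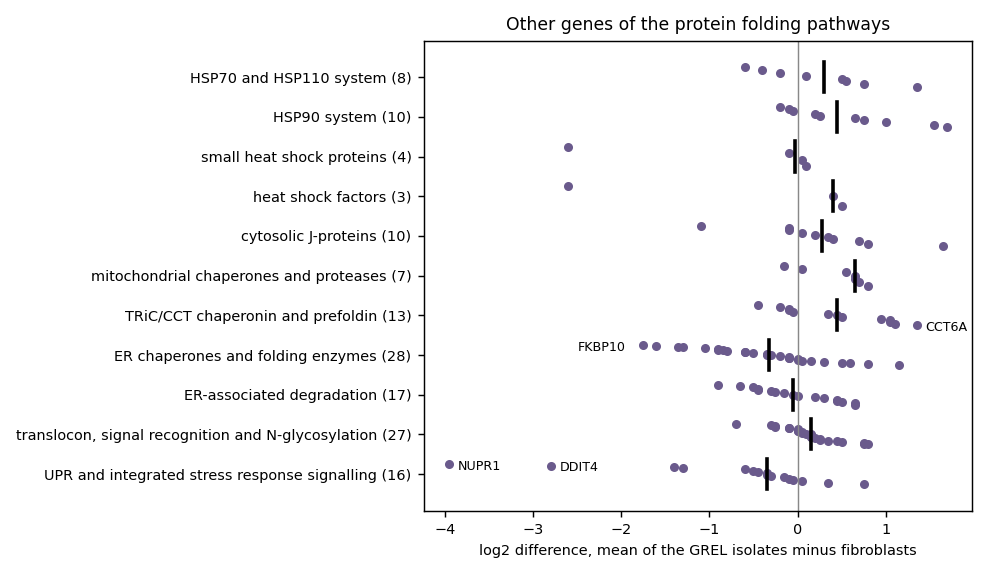
Log2 difference of the averaged GREL isolates from the fibroblasts (horizontal axis) for 143 further genes of protein folding and ER stress (points), in rows by role (gene numbers bracketed) with role medians as black bars. NUPR1 at -3.95 and DDIT4 at -2.80 are the lowest points, and the ER chaperones and folding enzymes have a median of -0.33.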

How the data were processed

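The authors hybridized RNA (250 ng per culture) to 1 array per culture, applied RMA background subtraction, then quantile normalization and a log2 transform (Partek 6.5 in the submitters' processing notes). The deposited log2 values were used as given. They carry no detection calls, and 0 columns were left unused. The table holds 24128 probe sets, from which 112 array controls were excluded. Symbols came from the platform annotation (1 symbol for 13292 probe sets). No genome build, coordinates or sequences were used.

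All 24016 probe sets were fitted with limma 3.58.1 in R 4.3.3 (lmFit and eBayes, 2 GREL arrays against 1 fibroblast array, 1 residual degree of freedom, Benjamini-Hochberg over all probe sets, threshold 0.05), a fit tested on simulated data. Identical rounded values in both isolates (3513 probe sets) make the spread too small. Counts used a difference of at least 2-fold in each isolate, without a test. Tables were made in Python 3.11.15 (pandas 2.3.3). Genes, roles, markers and lists were chosen with earlier results of these data known. Values are given for members at least 1.5-fold apart in both isolates and for others of each role, and for at most 4 further pathway genes per role that were at least 2-fold apart in both and above background on 1 array. Alternatives were the fold threshold, normalization, choice of probe set, a filter on dim genes, the prior, the methods' analysis of variance and leaving out an isolate. The number of arrays limits the precision.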

Additional observations from a re-analysis of the deposited data

How the results depend on the processing

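The median log2 difference of the 46 genes stayed between 0.29 and 0.40 under the normalization, probe set, filter and isolate alternatives, beside 0.35 as reported. The count of genes at least 2-fold higher, 7, was 15 at 1.5-fold, 1 at 3-fold and 4 with arrays centred on the median, which lowers isolate 1 by 0.1 and takes genes at exactly 2-fold below the threshold. It was 13 without isolate 1 and 8 without isolate 2, for which the share of all named genes was not counted. The count at least 2-fold lower, 1, was 2 at 1.5-fold, and it was 1 without isolate 1 and 2 without isolate 2. Limma called 1 of the 46 with a robust prior and 0 with an intensity trend, quantile normalization applied again, arrays centred, a filter on dim probe sets or the mean over probe sets, as did the analysis of variance on the 43 genes whose isolates differ. Of 152 recomputed differences of the 17 genes at least 1.5-fold apart in both isolates, 1, CCT4 with the robust prior, passed the threshold. Of them 0 changed sign, but most could not. The intensity trend, the prior, the analysis of variance and the filter leave a difference as it is. Leaving out an isolate cannot reverse genes chosen for the same direction in both. With the mean over probe sets, dim ones included, HSPH1 fell from 1.35 to 0.275 and SSR1 from 0.85 to 0.3. Limma could not be run without an isolate, since no residual degree of freedom is then left. The fibroblast culture has no replicate, so no alternative measures its variation.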
